A study of Mus musculus with 27 samples.

Results

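*Npnt* and *Urad* are 2 of the 23191 gene symbols counted by RNA-Seq in the livers of HGFAC-KO mice and littermate controls. They were selected on their small p-values for genotype on chow, where they held ranks 3 and 9 by p among 13571 genes, with no stated limit, and on lying outside other sets of genes. After adjustment over all genes 1 gene was called on chow, *Hgfac*, and neither *Npnt* nor *Urad* was. Their difference between genotypes on chow is therefore given as a description without a test. The p-values on chow did not use the HF/HS-fed mice, but the other sets include the genes most changed by genotype or by diet on HF/HS, so values of those mice may have entered by exclusion. HGFAC-KO mice carry a whole-body deletion, made with CRISPR/Cas9, from the middle of exon 1 through exon 2 of *Hgfac*, which encodes HGF activator, a circulating serine protease that activates hepatocyte growth factor. All mice were males on the C57BL/6J background, 8 weeks old when the diets began, and livers were taken after 4 weeks. The chow diet had 7 controls and 6 HGFAC-KO mice, and HF/HS, a high-fat, high-sucrose diet, had 7 of each.

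*Npnt* encodes nephronectin, a secreted extracellular matrix protein that carries an RGD motif. Nephronectin binds integrin α8β1 and is best known from kidney development, where it stands between the ureteric bud and the mesenchyme around it. *Urad* encodes the decarboxylase of the last step in the breakdown of uric acid to allantoin. In mouse liver, urate oxidase (*Uox*) and 5-hydroxyisourate hydrolase (*Urah*) carry out the steps before it, and xanthine dehydrogenase (*Xdh*) makes the uric acid. Humans lack a working urate oxidase and excrete uric acid itself.

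In GRCm38, *Npnt* (ENSMUSG00000040998) lies on the minus strand of chromosome 3 from 132881745 to 132950291. The annotation gives it 7 transcripts, of which 6 are protein coding, with up to 14 exons and 5026 bp of exon sequence in all. A small nuclear RNA gene, Gm23196, lies within its bounds on the opposite strand. *Urad* (ENSMUSG00000075543) lies on the minus strand of chromosome 5 from 147314984 to 147322440, 112.3 Mb from *Hgfac*, with 1 transcript of 2 exons and 766 bp of exon sequence. The 250 bases before each gene start, from RefSeq on GRCm38.p6, are shown because the 2 genes differ widely in level and their start regions differ in base composition. Each is written 5′ to 3′ on the gene's strand, with the GC box GGGCGG, searched on both strands, in capitals:
Npnt, chr3:132950292-132950541, minus strand: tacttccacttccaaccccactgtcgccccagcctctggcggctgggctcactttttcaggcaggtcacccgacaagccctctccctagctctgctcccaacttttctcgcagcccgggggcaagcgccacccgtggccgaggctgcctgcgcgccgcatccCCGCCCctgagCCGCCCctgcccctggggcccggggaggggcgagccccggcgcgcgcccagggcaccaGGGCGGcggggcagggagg
Urad, chr5:147322441-147322690, minus strand: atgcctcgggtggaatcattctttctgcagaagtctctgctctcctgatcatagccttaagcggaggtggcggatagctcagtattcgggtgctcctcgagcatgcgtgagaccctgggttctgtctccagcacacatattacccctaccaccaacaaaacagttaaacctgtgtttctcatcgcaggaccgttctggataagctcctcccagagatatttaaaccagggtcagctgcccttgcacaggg
The *Npnt* window is 74% G and C, at the 95.1 percentile of 32851 such windows, and holds 21 CpG dinucleotides. It has 3 GC boxes, a motif that 32.7% of all windows hold at least once. The *Urad* window is 52% G and C, near the median of 52.4%, and holds 8 CpG dinucleotides. None of the 4 motifs searched in it on both strands was present, namely GGGCGG, the E-box CACGTG (in 6.02% of windows), TATAAA (12.4%) and CCAAT (33.8%). A match or its absence describes these letters only.

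Libraries held 36056177 to 57298657 counts, and rows without a gene name, which were left out, held 4.13% to 12.1% of a library. *Hgfac* was measured first as the check of the labels. On chow its level was 201 ± 12.8 CPM (counts scaled to library size, mean ± SD) for the 7 controls, against 75.2 ± 8.27 CPM for the 6 HGFAC-KO mice. On HF/HS the levels were 271 ± 15.5 and 91.8 ± 7.94 CPM. Each HGFAC-KO mouse lay below each control on the same diet. Of 6 kidney markers, *Slc12a1* and *Aqp2* had no count in any mouse and the sum did not exceed 0.211 CPM. The labels name the tissue as liver, and 7 hepatocyte markers summed to at least 73820 CPM in each library.

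Hepatic *Npnt* was a rare transcript with its highest level in chow-fed controls, while *Urad* was abundant and stayed within a narrow range. In chow-fed controls *Npnt* stood at 0.216 CPM per kb of exon and *Urad* at 42.2 CPM per kb. Across the 27 mice *Npnt* ran from 0.168 to 1.57 CPM, from 7 to 81 counts. *Urad* ran from 26.7 to 47.5 CPM, from 915 to 2057 counts. The coefficient of variation of *Npnt* within a group was 28.7% to 43.4%, where counting alone would give 14.1% to 26.3%. For *Urad* these were 8.09% to 19.4% and 2.34% to 2.59%. For both genes the spread in each group exceeded that of counting, by least for *Npnt* in HF/HS-fed HGFAC-KO mice (31.4% against 26.3%).

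**Figure D1:**
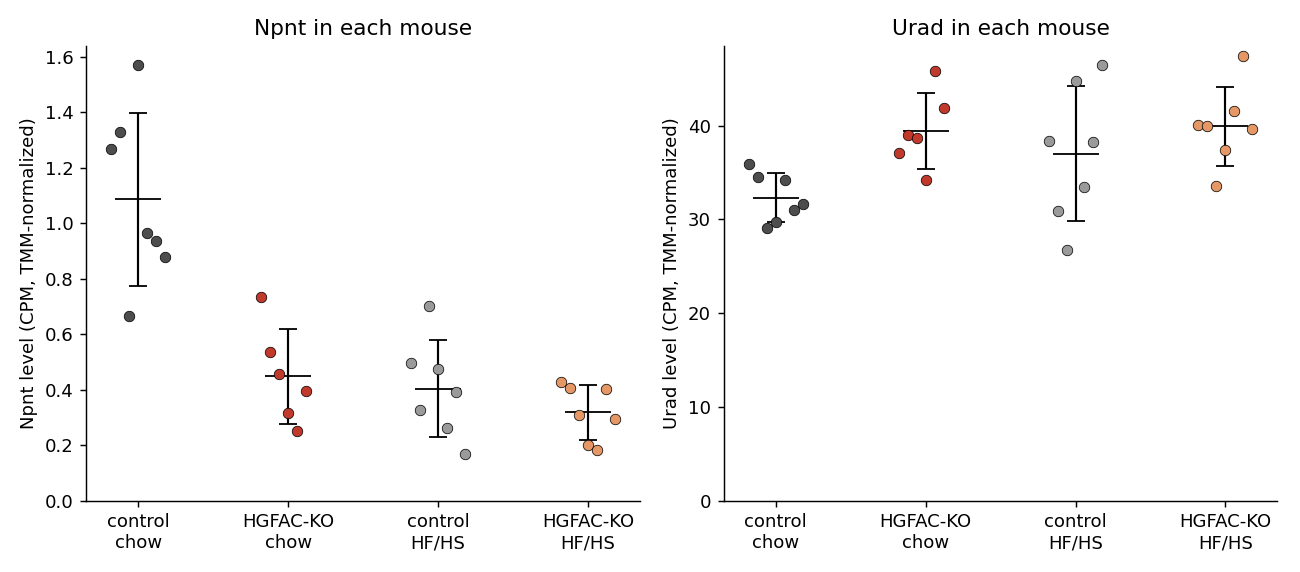
Levels of *Npnt* and *Urad* in CPM by group, with 1 point per mouse and the group mean ± SD. Chow-fed controls have the highest *Npnt* level (mean 1.09 CPM) and the lowest *Urad* level (mean 32.3 CPM).

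The loss of HGFAC was first examined on chow, the contrast that chose the genes. *Npnt* in controls had a lowest value of 0.663, a median of 0.964 and a highest value of 1.57 CPM. For HGFAC-KO mice the lowest was 0.250, the median 0.427 and the highest 0.732 CPM. In this group 5 of 6 mice lay lower than any control, and replicate 1, at 0.732 CPM, did not. Means were 1.09 ± 0.312 and 0.447 ± 0.172 CPM (SD, n = 7 and 6), a log2 fold change of -1.27 (SE 0.25), or 41.2% of control. *Urad* moved the other way. Its lowest, median and highest values were 29.1, 31.6 and 35.9 CPM in controls, against 34.2, 38.8 and 45.9 CPM after loss of HGFAC. Here 5 of 6 HGFAC-KO mice lay higher than any control, and replicate 4 did not. Means were 32.3 ± 2.61 and 39.4 ± 4.03 CPM, a log2 fold change of 0.29 (SE 0.07), or 122% of control.

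On HF/HS neither gene passed the test for genotype. Since the genes most changed by genotype on HF/HS form a set of their own, from which these 2 were kept apart, this is not independent of the choice. *Npnt* in controls had a lowest value of 0.168, a median of 0.391 and a highest value of 0.700 CPM. In HGFAC-KO mice these were 0.183, 0.308 and 0.426 CPM, so each HGFAC-KO mouse lay inside the range of the controls. Means were 0.403 ± 0.175 and 0.317 ± 0.0995 CPM (SD, n = 7 and 7). The log2 fold change was -0.33 (SE 0.29, 95% interval -0.94 to 0.28, edgeR quasi-likelihood test, adjusted p = 0.743), and the two-sided exact permutation test gave p = 0.366. The smallest p that this permutation test can give is 0.000583. The interval includes 0 and does not reach the chow value of -1.27. That value chose the gene, and a choice by small p favours a large one. The chow interval, -1.81 to -0.73, overlaps the interval on HF/HS. The difference between diets in the genotype effect was not tested, because the chow contrast chose the genes.

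*Urad* on HF/HS had lowest, median and highest values of 26.7, 38.3 and 46.4 CPM in controls, against 33.6, 40.0 and 47.5 CPM after loss of HGFAC. The groups overlapped, with 1 of 7 HGFAC-KO mice above all controls. Means were 37.0 ± 7.17 and 40.0 ± 4.20 CPM (SD, n = 7 and 7). The log2 fold change was 0.11 (SE 0.11, 95% interval -0.12 to 0.34, edgeR quasi-likelihood test, adjusted p = 0.780, exact permutation p = 0.325). The interval includes both 0 and the chow value of 0.29. Among all genes, 0.0148% of 13544 (2 genes) were called for genotype on HF/HS, and 1306 had an unadjusted p under the 0.05 threshold. The 2 were *Hgfac*, lower, and choline kinase alpha (*Chka*), higher. DESeq2 called 55 genes in the same comparison. Without control HF/HS replicate 3, which had the lowest *Urad* and the highest *Npnt* among controls, the log2 fold changes were 0.049 for *Urad* and -0.16 for *Npnt*.

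*Npnt* was lower in HF/HS-fed mice. Over all 27 mice the mean was 0.791 CPM on chow and 0.360 CPM on HF/HS. The log2 fold change was -1.02 (SE 0.19, 95% interval -1.42 to -0.62, edgeR quasi-likelihood test, adjusted p = 3.79e-04), and 11.2% of the 13932 genes tested were called lower. *Npnt* ranked 542 by p. The diets overlapped, since 3 of 14 HF/HS-fed mice were below all chow-fed mice. In the same comparison *Urad* had a log2 fold change of 0.12 (SE 0.068, 95% interval -0.021 to 0.26, adjusted p = 0.217) and did not pass the test. In either direction 23.2% of genes were called, 1676 higher and 1563 lower. Each mouse counted equally in these means, so that the chow mean is uncorrelated with the chow genotype difference where mice of both genotypes vary alike. The diet test still uses the chow-fed mice that chose the genes, and a choice by small p favours a small spread among them, which enters the SE, so its p may be too small. The coefficient of variation of *Npnt* was 28.7% and 38.4% in controls and HGFAC-KO mice fed chow and 43.4% and 31.4% in those fed HF/HS. In bulk liver, fewer cells of a type and less RNA per cell cannot be told apart.

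Within each genotype the diet response is a description, because the chow-fed mice chose the genes, and its intervals are not read as tests. In controls *Npnt* was 37.1% of the chow level on HF/HS, a log2 fold change of -1.45 (SE 0.26, 95% interval -2.00 to -0.90). There 6 of 7 HF/HS-fed controls were below all chow-fed controls, the exception being replicate 3 at 0.700 CPM. In HGFAC-KO mice *Npnt* was 70.9% of the chow level, a log2 fold change of -0.50 (SE 0.28, 95% interval -1.09 to 0.098), and 2 of 7 mice were below all chow-fed HGFAC-KO mice. *Urad* in controls was 115% of the chow level, a log2 fold change of 0.19 (SE 0.10, 95% interval -0.025 to 0.41), with 4 of 7 mice above all chow-fed controls and 1 below all. In HGFAC-KO mice *Urad* was 101% of the chow level, a log2 fold change of 0.017 (SE 0.078, 95% interval -0.15 to 0.18), close to 0.

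**Figure D2:**
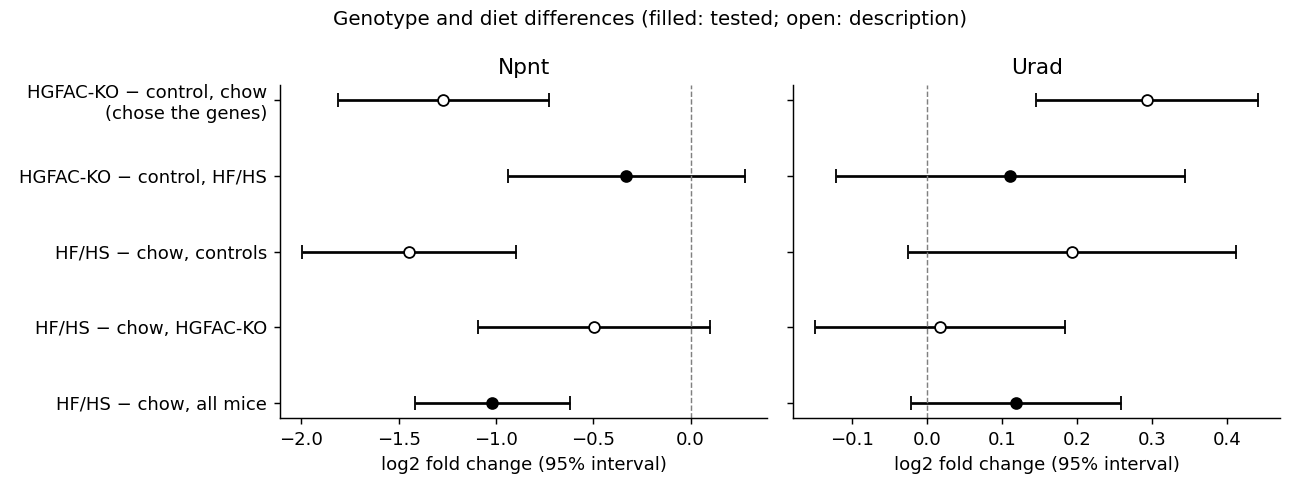
Log2 fold changes of *Npnt* and *Urad* with 95% intervals for genotype on each diet and for diet in each genotype and over all mice. Filled points were tested and open points are descriptions. Genotype on chow chose the genes, and diet in each genotype uses the same chow-fed mice, so the intervals of open points are not tests. The *Npnt* estimates run from -1.45 for diet in controls to -0.33 for genotype on HF/HS, and the *Urad* estimates from 0.017 to 0.29.

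By group mean, *Npnt* fell in the order chow-fed controls, chow-fed HGFAC-KO mice, HF/HS-fed controls and HF/HS-fed HGFAC-KO mice. Chow-fed HGFAC-KO mice and HF/HS-fed controls, at 0.447 and 0.403 CPM, differed by less than either SD. *Urad* stood at 40.0 CPM in HF/HS-fed HGFAC-KO mice, 39.4 CPM in chow-fed HGFAC-KO mice, 37.0 CPM in HF/HS-fed controls and 32.3 CPM in chow-fed controls. The 3 higher *Urad* groups lay within 1 SD of each other. After subtraction of the group means, Pearson's r between log2 levels of *Npnt* and *Urad* over the 27 mice was -0.207.

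The other enzymes from uric acid to allantoin did not pass either test. *Uox* had group means of 1041 CPM (control) and 906 CPM (HGFAC-KO) on chow and of 1083 and 1086 CPM on HF/HS. Its log2 fold change for genotype on HF/HS was 0.0049 (adjusted p = 0.992), and for diet over all mice it was 0.15 (SE 0.064, adjusted p = 0.0849). *Urah* had a diet log2 fold change of 0.040 (SE 0.047, adjusted p = 0.583) and a genotype log2 fold change on HF/HS of -0.13 (adjusted p = 0.530). For *Xdh*, the corresponding values were -0.027 (SE 0.054, adjusted p = 0.765) and -0.082 (adjusted p = 0.749). For genotype on HF/HS no gene was called in the lists of purine catabolism, purine salvage, de novo purine synthesis or urate transporters, with 18, 6, 16 and 10 genes tested. Over all genes 0.0148% were called in this comparison and 23.2% for diet, so nothing particular to these genes is read from this.

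Of 18 genes of purine nucleotide and base catabolism, 1 rose and 2 fell on HF/HS, a smaller share than the 23.2% of all genes called for diet. The ectonucleotidase *Nt5e* fell by 0.54 on the log2 scale (SE 0.088, edgeR adjusted p = 5.63e-05) and the nucleoside diphosphatase *Entpd5* fell by 0.42 (SE 0.044, adjusted p = 7.73e-08), while *Entpd8* rose by 0.22. In salvage 2 of 6 genes fell, beside 11.2% of all genes called lower. *Aprt*, which returns adenine to the nucleotide pool, had group means of 33.2 CPM (control) and 36.8 CPM (HGFAC-KO) on chow and of 21.2 and 22.5 CPM on HF/HS, and fell by 0.68 (SE 0.073, adjusted p = 1.01e-07). *Hprt*, which does so for hypoxanthine and guanine, fell by 0.11 (adjusted p = 0.0264). In de novo synthesis 4 of 16 genes fell, with log2 fold changes from -0.33 (*Adssl1*) to -0.13 (*Prps1*), and *Paics* and *Prpsap1* between them. Median log2 fold changes were -0.0337, -0.0936 and -0.0988 for these 3 lists, beside 0.00455 over all genes. With so few genes a list, nothing particular to purine genes is read from these counts.

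Of 10 urate transporters tested, 3 rose and 1 fell on HF/HS, beside 23.2% of all genes called. The organic anion transporter *Slc22a7* had group means of 15.2 CPM (control) and 14.2 CPM (HGFAC-KO) on chow and 48.8 and 32.9 CPM on HF/HS, a log2 fold change of 1.44 (SE 0.23, edgeR adjusted p = 6.72e-05). *Slc17a4* rose by 0.49 and the efflux pump *Abcg2* by 0.29. The efflux pump *Abcc4* had group means of 4.75 and 4.17 CPM on chow and 1.96 and 1.76 CPM on HF/HS, and fell by 1.27 (SE 0.14, adjusted p = 1.59e-07). The median log2 fold change of the list was 0.115.

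**Figure D3:**
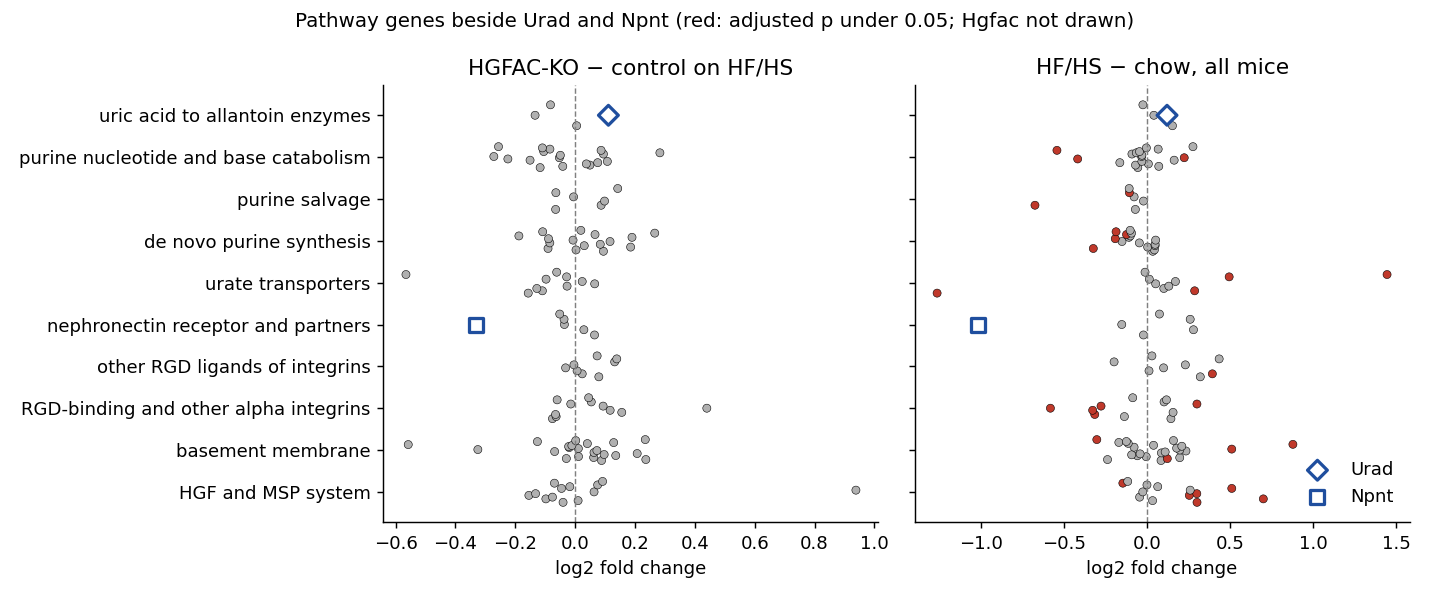
Log2 fold changes of the genes tested in each list of purine, urate, integrin, matrix and HGF genes, for genotype on HF/HS and for diet over all mice, with 1 point per gene, called genes in red and *Hgfac* not drawn. None of the genes drawn is called for genotype on HF/HS, beside 0.0148% of all genes. With diet, called genes run from -1.27 (*Abcc4*) to 1.44 (*Slc22a7*).

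The receptor of nephronectin and its tested partners did not pass either test. *Itga8*, the α8 chain of its receptor, had group means of 4.18 CPM (control) and 3.53 CPM (HGFAC-KO) on chow and of 4.68 and 4.57 CPM on HF/HS. Its log2 fold change was 0.26 for diet (SE 0.14, adjusted p = 0.192) and -0.037 for genotype on HF/HS (adjusted p = 0.971). *Itgb1*, the β1 chain, stood between 174 and 194 CPM by group mean (diet log2 fold change 0.073, SE 0.046, adjusted p = 0.264). *Egfl6*, a related secreted ligand, had 0 to 12 counts and was not tested. Of 11 genes in this list 5 could be tested and none was called in either comparison. Over all genes 23.2% were called for diet and 0.0148% for genotype on HF/HS. With so few genes, nothing particular to this list is read from the count.

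Calls for diet among other integrin and matrix genes are read against the 23.2% of all genes called, of which 1676 of 13932 were higher. Of 8 other RGD ligands, 1 rose, a share near that of all genes, namely fibronectin (*Fn1*), from 1953 CPM (control) and 1958 CPM (HGFAC-KO) on chow to 2546 and 2586 CPM on HF/HS (log2 fold change 0.39, SE 0.080, edgeR adjusted p = 7.42e-04). Of 11 integrin genes, 4 fell and 1 rose. *Itga6*, an α chain of laminin receptors, fell by 0.58 (SE 0.098, adjusted p = 8.49e-05), and *Itga5*, the α chain of the fibronectin receptor, fell by 0.33 (SE 0.045, adjusted p = 4.97e-06). *Itga3* and *Itga7* fell by 0.32 and 0.28, and *Itga9* rose by 0.30. Of 23 basement membrane genes, 3 rose and 1 fell, a smaller share than among all genes. The laminin chain *Lamb3* rose by 0.88 (SE 0.12, adjusted p = 8.82e-06) and *Lama3* by 0.51, while *Nid2* fell by 0.30.

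In the HGF and MSP system, to which HGFAC belongs, 6 of 14 genes rose and 1 fell with diet, beside 1676 higher and 1563 lower of 13932 genes in all (23.2%). *Hgf* had group means of 5.59 CPM (control) and 4.00 CPM (HGFAC-KO) on chow and of 8.04 and 7.54 CPM on HF/HS (log2 fold change 0.70, SE 0.15, edgeR adjusted p = 0.00128). Its receptor *Met* rose by 0.30, plasma kallikrein (*Klkb1*) by 0.25 and *Hgfac* itself by 0.30. The inhibitor *Spint2* fell by 0.15. On HF/HS *Mst1r*, the receptor of MSP, had low group means of 0.320 CPM (control) and 0.613 CPM (HGFAC-KO). Its genotype log2 fold change there was 0.94 (SE 0.33, edgeR adjusted p = 0.444). Medians over these 14 genes were 0.158 for diet and -0.043 for genotype on HF/HS, beside 0.00455 and -0.0015 over all genes.

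Markers of other liver cells were measured because *Npnt* was near the level of rare transcripts. With diet, 4 of 9 endothelial and 3 of 9 Kupffer cell and leukocyte markers rose, and 3 of 13 stellate cell and fibroblast markers rose and 1 fell, beside 23.2% of all genes called in either direction. None of 6 cholangiocyte or 5 mesothelial markers was called, although all 6 cholangiocyte markers had negative values (median log2 fold change -0.152), the direction of *Npnt*, and 4 of 5 mesothelial markers had positive ones (median 0.19). Summed endothelial levels ran from 184 to 300 CPM (control) and 155 to 253 CPM (HGFAC-KO) on chow, and from 215 to 347 and 205 to 303 CPM on HF/HS. Kupffer cell and leukocyte sums ran in the same order from 105 to 240, 104 to 161, 139 to 282 and 136 to 237 CPM. Stellate sums ran from 328 to 440, 234 to 482, 393 to 481 and 328 to 528 CPM. Mesothelial sums ran from 2.83 to 7.62, 2.48 to 7.37, 1.79 to 9.99 and 1.46 to 16.1 CPM, and cholangiocyte sums from 40.9 to 64.5, 52.0 to 74.0, 41.5 to 58.5 and 53.1 to 68.8 CPM. The ranges of these sums overlapped between all groups. Cholangiocyte sums had medians of 49.9 CPM (control) and 59.7 CPM (HGFAC-KO) on chow and of 48.8 and 60.4 CPM on HF/HS. These medians were higher in the knockout, where those of *Npnt* were lower. Of 5 adipocyte markers *Cidec* alone could be tested and was not called, and *Lep* had no count in any mouse. The adipocyte sums had medians of 10.4 CPM (control) and 6.44 CPM (HGFAC-KO) on chow and of 7.97 and 4.96 CPM on HF/HS. Their ranges were 6.66 to 15.7, 4.48 to 14.3, 5.69 to 14.5 and 4.11 to 21.1 CPM. These medians were lower in the knockout and on HF/HS, as those of *Npnt* were, but *Cidec* did not follow in each comparison. Its log2 fold change for genotype was -0.401 on chow and 0.0269 on HF/HS. For diet it was -0.209 in controls, 0.225 in HGFAC-KO mice and -0.0049 over all mice. Hepatocyte sums had medians of 83510 and 95630 CPM on chow and of 79260 and 101200 CPM on HF/HS, higher in the knockout, with ranges of 78220 to 93630, 89670 to 103900, 73820 to 91670 and 85140 to 112600 CPM. With diet 1 of 7 hepatocyte markers rose and 2 fell. Of genes with zoned expression, 5 of 7 periportal and 3 of 8 pericentral genes fell with diet, beside 11.2% of all genes called lower. For genotype on HF/HS no gene was called in any marker list, beside 0.0148% of all genes. All 8 pericentral genes had negative values there (median log2 fold change -0.357, 5 of 8 with an unadjusted edgeR p under 0.05). So had 8 of 9 endothelial markers (median -0.135), while all 5 mesothelial markers had positive values (median 0.354). On chow, all 9 Kupffer cell and leukocyte markers and 8 of 9 endothelial markers had negative values in HGFAC-KO mice against controls (medians -0.294 and -0.211), and so had all 8 pericentral genes (median -0.131). Stellate cell and fibroblast markers were negative in 9 of 13 (median -0.0537) and mesothelial markers in 4 of 5 (median -0.0589). Positive values, the direction opposite to *Npnt*, were held by 5 of 6 cholangiocyte markers (median 0.0788). So they were by 5 of 7 hepatocyte markers (median 0.053) and 4 of 7 periportal genes (median 0.0715). The median over all genes was 0.00312 on chow. The part of these markers in the *Npnt* values was not tested.

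The neighbouring genes were read in the same fits. *Tbck* and *Gstcd*, 40.1 and 31.5 kb from *Npnt*, had diet log2 fold changes of 0.091 (adjusted p = 0.452) and -0.049 (adjusted p = 0.651). *Polr1d*, 203.4 kb from *Urad*, had a diet log2 fold change of 0.024 (adjusted p = 0.691). *Pan3*, 107.7 kb from *Urad*, rose by 0.17 (SE 0.052, edgeR adjusted p = 0.0167). For genotype on HF/HS none of the 4 was called, with edgeR adjusted p from 0.718 to 0.921, beside 0.0148% of all genes called.

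The genes most like each member were taken as those with the highest Pearson's r of log2 levels over the 27 mice after subtraction of group means, among 13931 genes. The points share libraries and counting noise, and these are descriptions of the top of a ranking. For *Npnt* they were *Samd10* (r = 0.828), the calcium pump *Atp2b2* (0.813), the Golgi adaptor *Gga2* (0.808), lysosomal α-glucosidase *Gaa* (0.807) and the kinase *Map4k2* (0.798). Of these, *Gga2* and *Map4k2* fell with diet, by 0.35 and 0.20 on the log2 scale (edgeR adjusted p = 0.00147 and 0.0122). For *Urad* they were the helicase *Dhx30* (0.760), the ribosomal RNA methyltransferase *Nop2* (0.760), *Rsl1d1* (0.733), the ubiquitin ligase *Mul1* (0.730) and the transfer RNA methyltransferase *Trmt61a* (0.719), none of which was called for diet.

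Genes of the circadian clock were chosen after these values had been seen, and their relation to *Npnt* is a description. Over 12 clock genes, r with *Npnt* within groups ran from -0.555 (*Nr1d2*) to 0.573 (*Npas2*), and r with *Urad* from -0.359 to 0.136. *Arntl*, a clock activator, had r = 0.572 and Spearman's rho = 0.589 with *Npnt* (r = 0.554 without the 2 mice farthest from its median), and the repressor *Nr1d1* had r = -0.554 and rho = -0.579 (r = -0.476 without 2). Of the 12 clock genes 2 were called for diet, a smaller share than the 23.2% of all genes. *Nr1d1* rose by 0.71 on the log2 scale (edgeR adjusted p = 0.0200) and the output gene *Dbp* by 1.16 (adjusted p = 0.0383), while *Arntl* had a log2 fold change of -0.22 (adjusted p = 0.169). Of the others that were not called, *Nr1d2* had 0.46 (edgeR adjusted p = 0.0557), *Tef* 0.27, *Per3* 0.24, *Npas2* -0.20 and *Ciart* -0.49. *Cry1* had 0.051, *Per1* 0.047, *Per2* 0.034 and *Clock* -0.0057. Group means of *Nr1d1* were 56.5 ± 18.6 CPM (control) and 48.8 ± 22.2 CPM (HGFAC-KO) on chow and 96.7 ± 20.9 and 77.4 ± 37.7 CPM on HF/HS. Between genotypes *Arntl* stood at 20.03 CPM (control) and 23.8 CPM (HGFAC-KO) on chow and at 15.5 and 22.4 CPM on HF/HS. Its genotype log2 fold change on HF/HS was 0.53 (edgeR adjusted p = 0.331). By mean *Arntl* was higher and *Npnt* lower in HGFAC-KO mice on each diet. On HF/HS the genotype log2 fold change was 0.84 for *Npas2*, -0.54 for *Nr1d2* and -0.95 for *Dbp*. None of the 12 was called for genotype on HF/HS, beside 0.0148% of all genes. The part of the clock genes in the *Npnt* result was not tested.

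**Figure D4:**
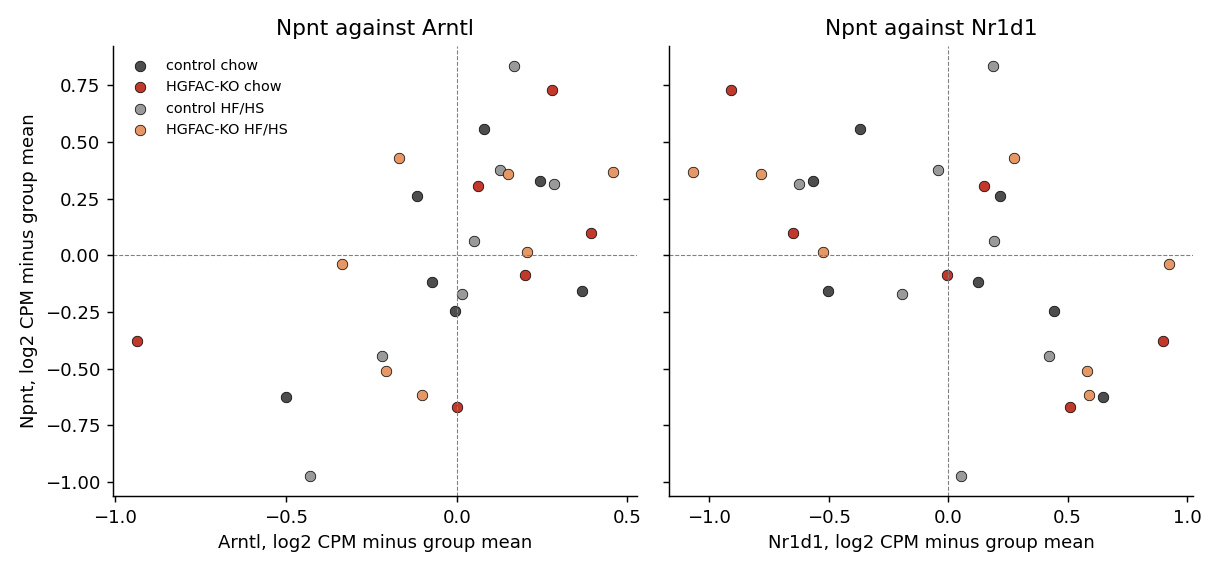
*Npnt* against *Arntl* and against *Nr1d1*, each as log2 CPM minus its group mean, with 1 point per mouse coloured by group. *Npnt* was higher in mice with more *Arntl* (r = 0.572) and lower in mice with more *Nr1d1* (r = -0.554). These genes come from 12 clock genes chosen after the values were seen. Those not drawn include *Per1* (r = -0.144) and *Per2* (r = -0.128). Among all genes the highest r with *Npnt* was 0.828 (*Samd10*).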

How the data were processed

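Liver mRNA of 27 mice was sequenced from stranded libraries as 50 bp paired-end reads. The authors aligned reads to GRCm38 (mm10) with HISAT2 and counted them with featureCounts 1.6.3, and they deposited raw counts per gene in 1 table. The strand setting, annotation release and treatment of multi-mapping reads are not given in the sources used here. Of 27179 rows, 3886 name no gene and did not enter library sizes or tests. Mice were grouped by their labels, and 0 sample columns were unmapped. Libraries of a group differed by more than sampling noise (lowest chi-square per gene 16.9), so none was counted as a repeat.

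The tests were run in edgeR 4.0.16 (R 4.3.3), using TMM normalization, filterByExpr (minimum count 10, minimum total 15), a robust quasi-likelihood fit and Benjamini-Hochberg adjustment over all genes, with a threshold of 0.05. Genotype on HF/HS was fitted on those mice alone, and diet over all mice as the contrast of mouse-weighted means in a model of 4 group means. CPM used TMM library sizes, and log2 CPM had a prior count of 2 in permutation tests and correlations. Intervals cover 95%. DESeq2 1.42.0 was an alternative. The paper's methods name the BioJupies server for differential expression of these counts, without the test it ran. The members, the lists and the tests were chosen with earlier results of these data known. Genes named were both members, *Hgfac*, the 5 most alike each, genes of each pathway list called or with the smallest p, and *Uox*, *Urah*, *Xdh*, *Itga8*, *Itgb1* and *Egfl6*. Also named were *Chka*, the gene within the bounds of *Npnt*, the neighbours and the clock genes. From the marker lists the text names *Cidec* and markers without a count in any mouse. Neighbours are the nearest protein-coding genes with at least 500 counts in all.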

Additional observations from a re-analysis of the deposited data

How the results depend on the processing

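Neither gene passed the test for genotype on HF/HS under any setting run, and *Npnt* stayed lower on HF/HS over all mice under each. Other normalizations, filters, fits and tools gave *Npnt* log2 fold changes of -0.34 to -0.27 for genotype on HF/HS and -1.03 to -0.9999 for diet, and leaving out 1 mouse gave -0.46 to -0.16 and -1.13 to -0.91. For *Urad*, leaving out 1 mouse gave 0.049 to 0.17 for genotype on HF/HS and 0.093 to 0.15 for diet. Among the descriptions, the diet value of *Npnt* in HGFAC-KO mice was -0.31 without chow replicate 1. In the same mice the diet value of *Urad* turned to -0.0031 without chow replicate 1, -0.022 without chow replicate 4 and -0.028 without HF/HS replicate 6. The number of genes called for genotype on HF/HS was 2, against 55 with DESeq2 and 1 with all 27 mice in 1 fit. Leaving out 1 mouse gave 2 to 11, with 5 without control replicate 7 and 11 without HGFAC-KO replicate 5. Genes called for diet numbered 3239, and 2761 to 3442 without 1 mouse.

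Replicate numbers were not taken to pair the mice, since no comparison had every pair of same-numbered mice correlated above 0.1 in their deviations from the group means. These correlations ran from -0.252 to 0.291 between genotypes on HF/HS (3 of 7 above 0.1), -0.145 to 0.368 between genotypes on chow (1 of 6), -0.232 to 0.09 between diets in controls (0 of 7) and -0.148 to 0.267 between diets in HGFAC-KO mice (4 of 6). With the replicate block *Npnt* had a log2 fold change of -0.30 and *Urad* of 0.13 for genotype on HF/HS, and the block changed no call of these genes. A filter of at least 10 counts in every library removes *Npnt*, so it was not run for *Npnt* on HF/HS or for diet. *Npnt* had 7 to 81 counts per library, which limits the size of a change that can be seen.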
